A study of Mus musculus with 4 samples.

Results

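The HMGN and HMGB proteins are small, abundant non-histone proteins of chromatin, and the genes described here were the 7 members whose symbols stood in the deposited table: Hmgn1, Hmgn2, Hmgn3, Hmgn5, Hmgb1, Hmgb2 and Hmgb3, out of 25124 gene symbols listed. RNA had been sequenced from airway epithelial cells that were sorted by flow cytometry from the lungs of wild-type (WT) C57BL/6 mice. One group of 2 samples came from mice treated with house dust mite (HDM), an inhaled allergen source, and with an inhibitor of stearoyl-CoA desaturase 1 (SCD1), an enzyme that puts a double bond into saturated fatty acids. The other group of 2 samples came from HDM-treated mice given the vehicle dimethyl sulfoxide (DMSO), so that all 4 samples had received HDM. The inhibitor is not named in the labels, and neither dose, duration, age nor sex is given there. The labels do not say whether samples came from separate mice, so the spread between replicates may be technical. The 7 members had been proposed with results of the same comparison in view, and their values below are therefore a description, without p-values.

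HMGN proteins bind nucleosome core particles through a short conserved domain and loosen the chromatin fibre, partly by competing with linker histone H1. HMGB proteins carry a pair of HMG boxes that bend DNA in the minor groove and end in an acidic tail. Outside the cell HMGB1 acts as an alarmin, a danger signal read by the receptor for advanced glycation end products and by Toll-like receptors, and it is studied in allergic airway disease for that reason.

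Hmgn5 had the largest difference between the groups among the 7 members. Its transcript averaged 1189 ± 127 normalised reads with the inhibitor and 259 ± 38.5 with DMSO (SD, n = 2 each), a ratio of 4.59. The other 6 members had ratios of inhibitor to DMSO means from 1.05 for Hmgn1 to 1.33 for Hmgb2. A normalised read is a read count divided by the size factor of its library. Fold changes are given on the scale log2(value + 25.8), where 25.8 normalised reads equal 1 CPM (a count scaled to the library total) at the mean library total, with the standard error of a limma model over all 13810 genes tested.

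The coding sequences show what unites the HMGN members. Each held 1 copy of the octapeptide core of the nucleosomal binding domain, found by translating the longest coding transcript of each gene in GENCODE M21. The 24 bases that encode the core are in capitals below, with 18 bases on either side, 5′ to 3′ on the coding strand, because this is the part by which every HMGN protein holds the nucleosome.
Hmgn1: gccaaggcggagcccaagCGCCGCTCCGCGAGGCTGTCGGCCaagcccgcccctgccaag
Hmgn2: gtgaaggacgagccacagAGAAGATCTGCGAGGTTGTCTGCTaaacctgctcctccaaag
Hmgn3: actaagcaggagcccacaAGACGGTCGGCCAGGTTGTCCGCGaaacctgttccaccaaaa
Hmgn5: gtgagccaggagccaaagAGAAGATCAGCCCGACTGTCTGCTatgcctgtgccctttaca

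All 4 cores encode the same peptide with different codons. Hmgn5 shared 19 of the 24 bases with Hmgn2, 16 with Hmgn3 and 14 with Hmgn1. The core began at codon 18 in Hmgn1, 23 in Hmgn2, 25 in Hmgn3 and 16 in Hmgn5. Beyond it Hmgn5 differed in kind. It had 406 codons, against 90 to 96 in Hmgn1, Hmgn2 and Hmgn3, and 154 of them, 37.9%, encoded aspartate or glutamate, where these made up 14.7% to 16.7% of codons in the other HMGN members. Hmgn5 had at most 4 acidic residues in a row.

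The coding sequences of the HMGB members each closed with an unbroken acidic tail, beside other acidic codons before it. The tail had 30 acidic codons in Hmgb1, 23 in Hmgb2 and 20 in Hmgb3. The Hmgb1 tail is shown in capitals after the 4 lysine codons before it, since it is the longest acidic run of the 7 genes.
Hmgb1: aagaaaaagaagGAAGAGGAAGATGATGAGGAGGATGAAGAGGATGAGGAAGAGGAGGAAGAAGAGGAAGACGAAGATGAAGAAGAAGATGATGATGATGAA

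Depth was similar in all libraries, at 24591122 to 27013663 reads assigned to genes. All 7 members passed the floor for testing, a mean of 25.8 normalised reads. The smallest count of any member in any library was 238 reads, for Hmgn5 in DMSO replicate 1, where the counting error is 6.48%. Hmgb4, a relative of the HMGB genes expressed in testis, and the related sequence Hmgb1-rs17 were listed at 0 in all 4 libraries. Over the genes tested, the median log2 fold change was 0.0056, 90% of genes lay between -0.62 and 0.74, and 1944 had an unadjusted limma p under 0.05. The log2 difference between replicates had an SD of 0.45 across genes for the inhibitor pair and 0.58 for the DMSO pair.

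Hmgn1, the archetypal HMGN protein, which also affects transcription-coupled repair, lies on chromosome 16 (96120618 to 96127729, minus strand, mm10, as are all coordinates here). It had 3042 and 3142 normalised reads with the inhibitor, against 3014 and 2866 with DMSO. The groups did not overlap, but the lowest inhibitor value stood above the highest DMSO value by a ratio of 1.01 alone, and the log2 fold change was 0.072 ± 0.13 (SE). Hmgn2, the most conserved member, lies on chromosome 4 (133964738 to 133968650, minus strand). Its 1111 and 1059.5 normalised reads with the inhibitor stood against 1021 and 941 with DMSO, a log2 fold change of 0.14 ± 0.19. These values also did not overlap, by a ratio of 1.04.

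Hmgn3, known from mouse pancreatic islets, eye and brain, lies on chromosome 9 (83109948 to 83146685, minus strand). It had 721 and 835 normalised reads with the inhibitor, and 694 and 727 with DMSO, so that DMSO replicate 2 exceeded inhibitor replicate 1. The log2 fold change was 0.12 ± 0.22. For Hmgn1, Hmgn2 and Hmgn3 the standard error was larger than the difference.

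Hmgn5, formerly called nucleosome-binding protein 1, decompacts chromatin and binds linker histone through its long acidic part. It lies on the X chromosome (109004534 to 109013404, minus strand). It had 1279 and 1099 normalised reads with the inhibitor, against 232 and 286 with DMSO. The lowest inhibitor value was 3.84 times the highest DMSO value. The replicates differed by 0.21 on the log2 scale with the inhibitor and 0.28 with DMSO. These differences stood at percentiles 52.4 and 52.0 of all genes tested, a middling spread. The log2 fold change of Hmgn5 was 2.09 ± 0.25, the fifth highest among all 13810 genes tested.

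Hmgb1, the most abundant HMGB gene, lies on chromosome 5 (149046702 to 149184489, minus strand). It had 3887 and 4065 normalised reads with the inhibitor, and 2615 and 3384 with DMSO, a log2 fold change of 0.41 ± 0.14. The groups did not overlap, and DMSO replicate 2 lay closer to the inhibitor samples than to its own replicate. The value depended on that library: it was 0.60 without DMSO replicate 2 and 0.23 without DMSO replicate 1.

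Hmgb2, which is high in proliferating cells, lies on chromosome 8 (57511907 to 57515999, plus strand). Its 543 and 612 normalised reads with the inhibitor did not overlap the 409 and 456 with DMSO, and the log2 fold change was 0.39 ± 0.26. Hmgb3, known from blood progenitors in mice, lies on the X chromosome (71555918 to 71560676, plus strand). It had 658 and 377 normalised reads with the inhibitor, and 376 and 436 with DMSO. Inhibitor replicate 1 stood alone, while replicate 2 was level with the lower DMSO sample. The log2 fold change of Hmgb3, 0.28 ± 0.31, was -0.099 when SCD1 inhibitor replicate 1 was left out, and 0.67 when replicate 2 of that group was left out.

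**Figure D1:**
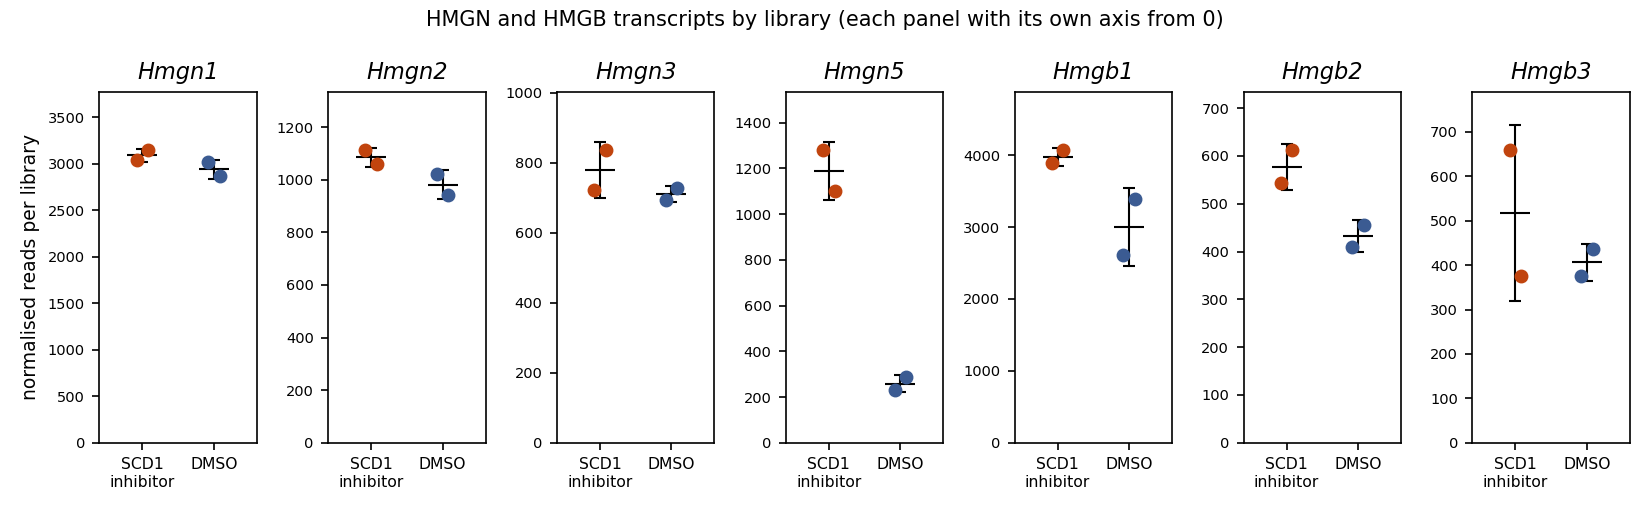
Normalised reads of each of the 7 members (y axis, from 0, 1 scale per panel) in the 2 SCD1 inhibitor and 2 DMSO libraries (points), with the mean and SD (black). Hmgn5 had 1279 and 1099 normalised reads with the inhibitor, against 232 and 286 with DMSO, while Hmgn3 and Hmgb3 overlapped between groups.

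Counted together, 7 of 7 members had a log2 fold change above 0, where 50.7% of all genes tested did. In 5 of 7, namely Hmgn1, Hmgn2, Hmgn5, Hmgb1 and Hmgb2, both inhibitor values lay above both DMSO values, where 22.7% of all genes tested did so and 44.9% did not overlap in either direction. The median log2 fold change was 0.28 over the 7 members and 0.21 over the 6 without Hmgn5, beside the median of 0.0056 for all genes tested. In the limma fit 1 of 7, Hmgn5, passed a Benjamini-Hochberg adjusted threshold of 0.05 over all genes, which 1.79% of all genes tested passed, 1.36% as higher and 0.427% as lower with the inhibitor. A log2 fold change at least that of Hmgn5 was found in 0.0362% of genes. Hmgn5 was also the single member called by edgeR and by DESeq2. edgeR called 0.0654% of its 15299 genes, and DESeq2 called 5.67% of the 8418 genes that it gave an adjusted p. The members were chosen on this contrast, so nothing is read from these counts. When SCD1 inhibitor replicate 1 was left out, 0 members passed and Hmgn5 had a log2 fold change of 1.99. Limma then called 0 genes higher and 5 lower in all, with 1061 at an unadjusted p under 0.05. With replicate 2 of that group left out, 0 members passed, Hmgn5 had 2.20, and limma called 3 genes higher and 12 lower, with 853 at an unadjusted p under 0.05. When DMSO replicate 2 was left out, 2 members passed, and limma called 240 genes higher and 115 lower in all.

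Levels of different genes were compared per kilobase of the longest coding transcript. With the inhibitor the order was Hmgn1 (1422 ± 32.3 normalised reads per kilobase, SD, n = 2), Hmgb1 (1401 ± 44.3), Hmgn2 (858 ± 28.9), Hmgn5 (615 ± 65.5), Hmgn3 (559 ± 57.7), Hmgb3 (297 ± 114) and Hmgb2 (219.6 ± 18.5). The library values overlapped between Hmgn1 and Hmgb1, between Hmgn5 and Hmgn3, and between Hmgb3 and Hmgb2. With DMSO the first places were the same, but Hmgn5 came last. The DMSO levels were 1352 ± 48.0 normalised reads per kilobase for Hmgn1, 1057 ± 192 for Hmgb1, 776 ± 44.7 for Hmgn2, 511 ± 17.0 for Hmgn3, 233 ± 24.3 for Hmgb3, 165 ± 12.5 for Hmgb2 and 134 ± 19.9 for Hmgn5, with no overlap between neighbours in that order. Dividing by the union of all annotated exons instead changed the order. Hmgn5 then had 119.9 and 148 normalised reads per kilobase with DMSO and Hmgb2 had 136 and 152, so the last places overlapped. Hmgn3 passed Hmgn2 in both groups, with means of 416 against 355 with the inhibitor and 380 against 321 with DMSO. Hmgn5 (615) also passed Hmgn2 with the inhibitor, where Hmgb1 (774 and 809) no longer overlapped Hmgn1 (945 and 975). The order of levels thus depends on the length used.

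The make-up of the HMGN transcripts differed accordingly. Hmgn5 gave 19.1% and 16.5% of the summed HMGN level per kilobase in the inhibitor libraries, against 4.26% and 5.42% in the DMSO libraries. The summed HMGN level was 3458 and 3452 normalised reads per kilobase with the inhibitor, and 2813 and 2734 with DMSO. Among the HMGB genes, Hmgb1 gave 70.1% and 76.1% of the summed level with the inhibitor, and 71.3% and 73.8% with DMSO. There the shares overlapped between groups for all 3 genes. The summed HMGB level was 1954 and 1881 normalised reads per kilobase with the inhibitor, and 1293 and 1616 with DMSO, so the sums did not overlap. All these shares and sums are per kilobase of the longest coding transcript and depend on that length.

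**Figure D2:**
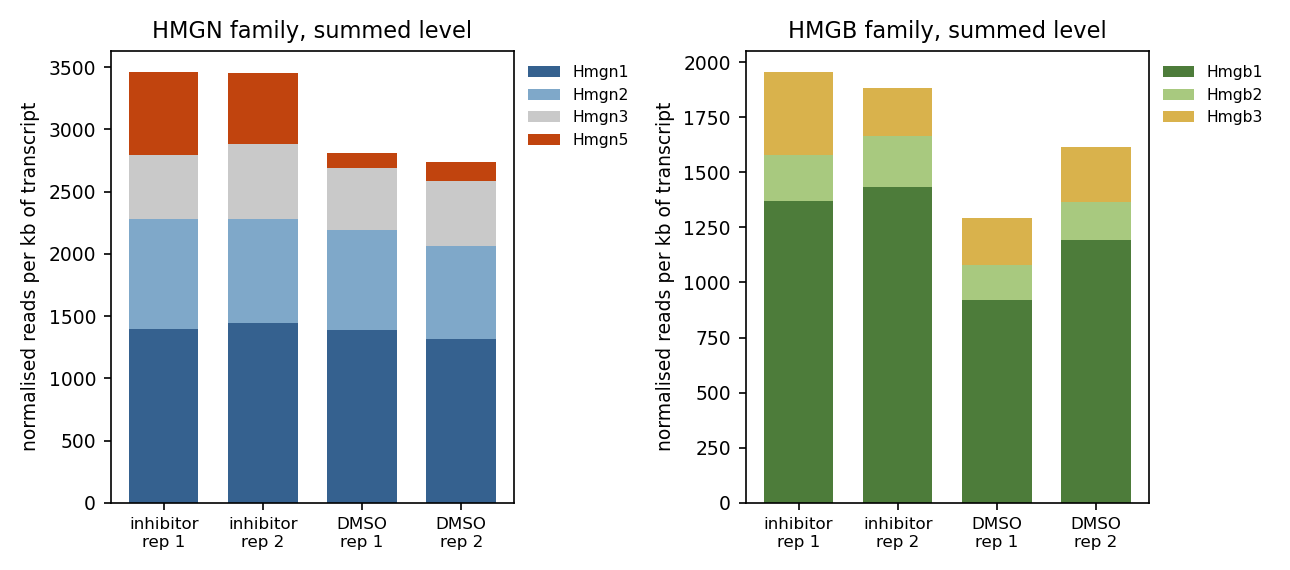
Summed level of the 4 HMGN genes (left) and the 3 HMGB genes (right) in normalised reads per kilobase of transcript (y axis, from 0), stacked by gene, for each library (x axis). The Hmgn5 segment was 661 and 568 normalised reads per kilobase in the inhibitor libraries, against 119.9 and 148 in the DMSO libraries, while the other HMGN segments were similar in height.

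Base composition moved with the comparison across the whole transcriptome, and the members lie on the GC-poor side of it. Over 13648 genes with an annotated transcript, the log2 fold change and the GC content of the transcript had a Spearman correlation of -0.38, given as a description across genes that share the 4 libraries. The decile of genes lowest in GC content, 31.0% to 42.1%, had a median of 0.33 on that scale, and the highest decile had -0.13. The correlation ranged from -0.20 to -0.40 over the 4 differences between an inhibitor and a DMSO library. It was -0.033 for inhibitor replicate 1 minus replicate 2, and -0.19 for DMSO replicate 1 minus replicate 2.

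Set against genes of like GC content, 6 of the 7 members lay within 0.22 of the median of their decile. Hmgb1 (40.1% GC) and Hmgb2 (38.7%) exceeded the median of their decile by 0.083 and 0.063 on the log2 scale. Hmgn1 (46.9%) and Hmgn2 (45.9%) exceeded theirs by 0.0060 and 0.034, Hmgn3 (44.4%) differed from its own by -0.060, and Hmgb3 (47.3%) lay above by 0.22. Hmgn5, with 40.7% GC, lay 1.76 above the median of its decile, where 2 of 1365 genes, Hmgn5 included, had a value as high. The part of base composition in the members' values was not tested.

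**Figure D3:**
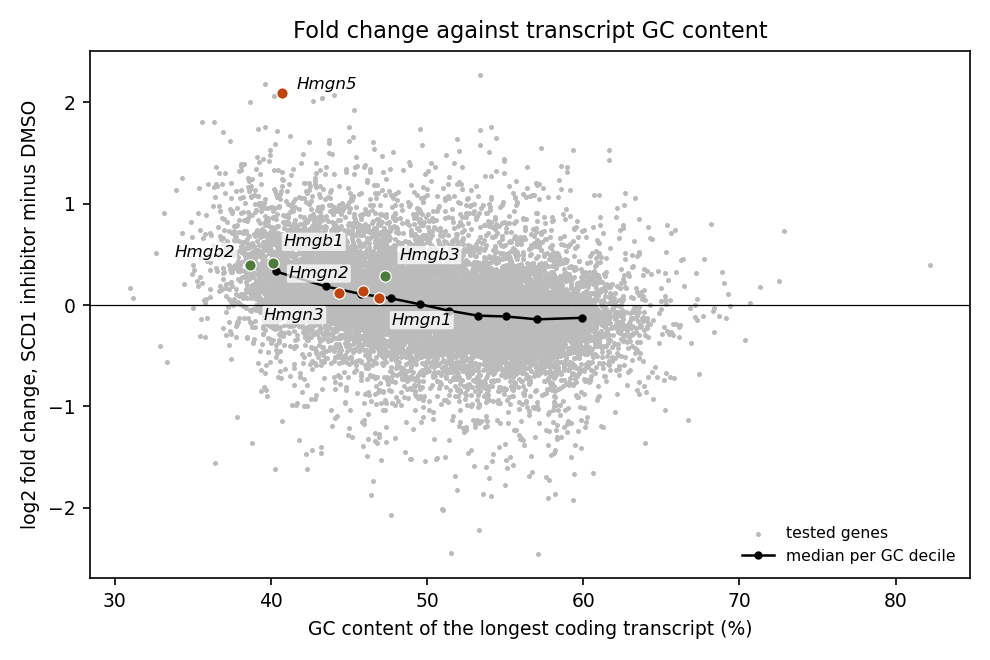
Log2 fold change, SCD1 inhibitor minus DMSO (y axis), against the GC content of the longest coding transcript in percent (x axis) for 13648 tested genes (grey), with the median of each decile of genes by GC content (black) and the members (HMGN red, HMGB green). The medians descend across the deciles, with 0.33 in the lowest and -0.13 in the highest, 6 members lie near the line, and Hmgn5 lies at 2.09.

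Many members have near-identical copies in the mouse genome, which bears on how well their reads can be placed. Of the stretches of 50 bases in the longest coding transcript, 67.1% in Hmgn2 occurred also in a transcript of another annotated gene, 40.9% in Hmgb1, 34.2% in Hmgb3, 21.9% in Hmgb2, 18.6% in Hmgn5 and 6.54% in Hmgn1. In Hmgn3 it was 51 of 1342 stretches. Hmgb1 shared stretches with 132 other genes, 129 of them pseudogenes, and Hmgn2 with 18. For Hmgn5 the copy was a single processed pseudogene, Gm11914. How reads that fit several places were counted is not given in the sources used here, so the values of Hmgn2, Hmgb1 and Hmgb3 are the least certain. Hmgn3 shared its stretches with Gm29054, which has a transcript annotated as antisense, both strands having been searched. Whether counting used strand is likewise not given.

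The X-linked position of Hmgn5 and Hmgb3 was set beside the rest of that chromosome. The 427 tested X-linked genes had a median log2 fold change of 0.11, against 0.0029 for genes on other chromosomes, and 8 of them rose and 0 fell in limma's test over all genes, beside 177 that rose and 59 that fell among 13221 on other chromosomes. The 2 tested genes within 1 Mb of Hmgn5 had log2 fold changes of 0.57 ± 0.25 for Brwd3 and 0.33 ± 0.18 for Sh3bgrl (SE), neither of which passed (adjusted p = 0.335 and 0.442). The Y-linked genes Ddx3y, Eif2s3y and Kdm5d were listed at 0 in all 4 libraries and Uty had at most 0.975 normalised reads. These genes were chosen after their values were seen.

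RefSeq promoter sequences, 250 bases before to 50 after the start (GRCm38.p6), were held for 6 of the 7 members, Hmgn3 having none in the table used. They are given for Hmgn5 and Hmgn1, the HMGN members with the highest and the lowest fold change, with each CCAAT box, the motif of the factor NF-Y, in capitals on either strand. The Hmgn5 promoter is chrX:109013331-109013630 and the Hmgn1 promoter is chr16:96127676-96127975, both on the minus strand and written 5′ to 3′ in the direction of transcription.
Hmgn5: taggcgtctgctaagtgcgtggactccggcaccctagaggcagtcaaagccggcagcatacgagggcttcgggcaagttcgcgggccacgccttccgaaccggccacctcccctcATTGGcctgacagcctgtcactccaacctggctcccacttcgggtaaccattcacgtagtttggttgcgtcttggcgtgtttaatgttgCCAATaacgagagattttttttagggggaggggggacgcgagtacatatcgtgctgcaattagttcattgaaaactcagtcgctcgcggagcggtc
Hmgn1: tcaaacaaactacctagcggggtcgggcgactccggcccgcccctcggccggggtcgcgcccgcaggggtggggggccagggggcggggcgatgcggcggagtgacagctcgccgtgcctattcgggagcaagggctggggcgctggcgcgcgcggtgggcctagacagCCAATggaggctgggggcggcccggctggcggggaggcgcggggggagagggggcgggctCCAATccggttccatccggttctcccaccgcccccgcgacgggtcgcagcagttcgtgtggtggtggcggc

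Both promoters held 2 CCAAT boxes. Hmgn5 had no GGGCGG, the letters bound by the Sp factors, where Hmgn1 had 5, and its GC content was 56.7%, against 76.0% for Hmgn1. Over the 7 promoter entries of the 6 members, of which Hmgb1 had 2, CCAAT stood in 6 and GGGCGG in 5. These motifs stood in 37.4% and 35.7% of all 32851 promoters of the same length. The 7 entries had 56.7% to 77.0% GC and 20 to 45 CpG (C followed by G), against medians of 52.7% and 7 over all promoters. The shares were not matched for base composition, so no enrichment is read from them. TTTGAA, the cell cycle homology region, stood in 2, those of Hmgb2 and Hmgb3, beside 17.9% of all promoters. Neither TTTGGCGC nor TTTCGCGC (E2F) stood in any of the 7, beside 0.813% of all promoters that held either. The palindrome of the factor NRF1 stood in 0 of the 7, beside 0.971% of all promoters. Both strands were searched, and each motif was counted on its own, whether or not it overlapped another.

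In the 7 lists of related genes limma called 1 gene, DESeq2 6 and edgeR 0. Of 25 tested histone chaperones, which carry histones to and from DNA, 1 rose and 0 fell in limma's test, 5 had an unadjusted p under 0.05, edgeR called 0 and DESeq2 2. The median of the 25 was -0.061. The gene that rose was Atrx, an X-linked remodeller that deposits the histone variant H3.3 with Daxx. Atrx had 4999 and 4652 normalised reads with the inhibitor, against 2514 and 1226 with DMSO, a log2 fold change of 1.44 ± 0.24 (SE, limma adjusted p = 0.0102). Atrx no longer passed limma's test when SCD1 inhibitor replicate 1 was left out (1.39, adjusted p = 0.253) or replicate 2 of that group (1.49, adjusted p = 0.280). It did not pass with edgeR either (adjusted p = 0.128), nor with limma on all genes without a floor (adjusted p = 0.0560) or without the intensity trend (adjusted p = 0.453). It passed with DESeq2 (adjusted p = 3.98e-06). Its value was 1.95 with DMSO replicate 1 left out and 0.93 with DMSO replicate 2 left out. With 39.5% GC, Atrx belonged to the decile of genes lowest in GC content, where the median was 0.33 and 95% of genes lay below 1.08. The part of base composition in the value of Atrx was not tested.

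Among 32 other genes with an HMG box or of the HMGA family, 0 passed with limma, 2 had an unadjusted p under 0.05, edgeR called 0 and DESeq2 1, and the median was -0.072. Sox2, a transcription factor of airway epithelium, had 4741 and 4494 normalised reads with the inhibitor, and 4727 and 5033 with DMSO, which overlapped. Ssrp1, the HMG-box subunit of the FACT complex, overlapped as well (log2 fold change 0.11 ± 0.12, adjusted p = 0.744). The linker histones that HMGN proteins compete with had 0 calls among 5 tested with limma, edgeR and DESeq2, and 0 at an unadjusted p under 0.05. Their most abundant gene, H1f0, differed by -0.038 ± 0.13 on the log2 scale (adjusted p = 0.929), and Hist1h1c had 0.012 ± 0.19 (adjusted p = 0.987).

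Of 8 replacement histone variants, 0 passed with limma, 2 had an unadjusted p under 0.05, edgeR called 0 and DESeq2 1. H3f3b, which encodes H3.3, had 24460 and 23324 normalised reads with the inhibitor, against 20100 and 19154 with DMSO, without overlap (0.28 ± 0.10, limma adjusted p = 0.222). H2afy, a macroH2A gene, had -0.062 ± 0.13 (adjusted p = 0.883). The SET complex, the nuclease complex in which HMGB2 is found, had 0 calls among 8 genes with limma, edgeR and DESeq2 and 0 at an unadjusted p under 0.05, with a median of -0.16. Its most abundant genes were the peroxiredoxin Prdx1 (-0.22 ± 0.12, adjusted p = 0.432) and Anp32a (0.043 ± 0.12, adjusted p = 0.913).

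For the receptors and partners of extracellular HMGB1, 0 of 11 tested genes passed with limma, 3 had an unadjusted p under 0.05, edgeR called 0 and DESeq2 2, and the median was -0.17. Cd24a, a surface glycoprotein that binds HMGB1, stood at 0.28 ± 0.11 on the log2 scale (limma adjusted p = 0.241), and Hp, the haptoglobin gene, had -0.58 ± 0.14 (adjusted p = 0.0575). Of 22 proliferation genes, 0 passed with limma, 2 had an unadjusted p under 0.05 and edgeR and DESeq2 each called 0. Their median was -0.12, with 10 of the 22 above 0 and a range from -1.83 to 1.61. The tubulin gene Tuba1b had -0.26 ± 0.13 (adjusted p = 0.430) and the lamin gene Lmnb1 -0.14 ± 0.19 (adjusted p = 0.811).

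**Figure D4:**
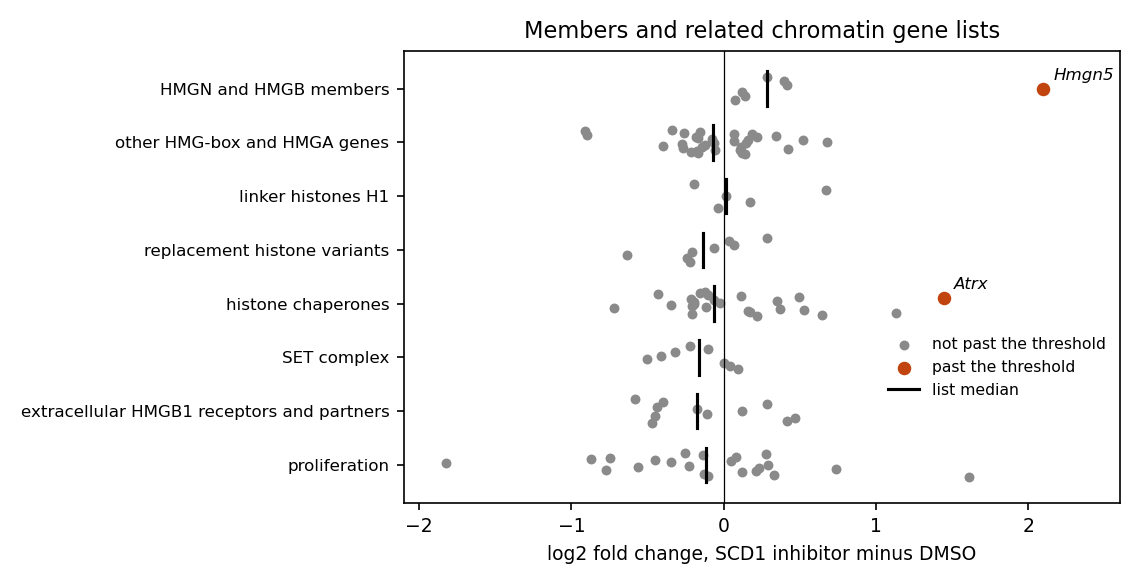
Log2 fold change, SCD1 inhibitor minus DMSO (x axis), of each tested gene (points) in the members and the 7 related lists (rows), with the list median (black bar) and genes past limma's adjusted threshold of 0.05 in red. Hmgn5 at 2.09 and Atrx at 1.44 are the red points, and the medians of the related lists lie between -0.17 and 0.012. The members were chosen on this contrast, so the call of Hmgn5 is no independent test.

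The genes nearest to the mean profile of the 7 members over the 4 libraries, by Euclidean distance of centred log2 values, were Golim4, Pnpt1, Ccdc113, Slc19a3 and 1700008J07Rik. Hmgn5, with a log2 fold change of 2.09, weighed most in that mean, which is not the profile of each member. The other 6 members had at most 0.41, below Slc19a3, the lowest of the 5 genes, at 0.46. The correlations of the 5 genes with the profile were at least 0.994 over 4 libraries, and 479 of 13803 genes exceeded 0.95. The profile itself differed between the groups, with centred values of 0.29 and 0.21 with the inhibitor and -0.31 and -0.19 with DMSO. The 5 genes were thus selected on the contrast, and the p-values below are no independent test of it. Ccdc113, a ciliary gene, had 7010 and 6746 normalised reads with the inhibitor, against 4468 and 5088 with DMSO, and passed (0.53 ± 0.12, SE, limma adjusted p = 0.0417). Ccdc113 no longer passed limma's test when SCD1 inhibitor replicate 1 was left out (0.50, adjusted p = 0.526) or replicate 2 of that group (0.55, adjusted p = 0.551), with TMM scaling (adjusted p = 0.0530), with a smaller pseudocount (adjusted p = 0.0502), without a floor (adjusted p = 0.0895), without the trend (adjusted p = 0.463) or with edgeR (adjusted p = 0.149). It passed with DESeq2 (adjusted p = 0.00141), and in limma with a larger pseudocount (adjusted p = 0.0378), with a higher floor (adjusted p = 0.0421) and with scaling to the library total (adjusted p = 0.0465).

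Markers of cell types also differed between the groups. In bulk RNA, fewer cells of a type and less RNA per cell cannot be told apart. The common epithelial markers were high in every library, summing to 98042 and 102639.9 normalised reads with the inhibitor and 102153 and 103994 with DMSO. Of 6 goblet cell markers 4 fell and 0 rose, and their sum was 14855 and 26923 normalised reads with the inhibitor, against 84400 and 61799 with DMSO. Of 6 alveolar type 2 markers 3 fell, with sums of 244097 and 203648 normalised reads with the inhibitor, against 313954 and 358104 with DMSO. Of 5 club cell markers 2 fell, with sums of 467650 and 276821 normalised reads with the inhibitor, against 495220.5 and 404907.5 with DMSO. Of 6 ciliated cell markers 1 rose, with sums of 471598 and 487539 normalised reads with the inhibitor, against 468232.5 and 472212.5 with DMSO. These calls are limma's. The most abundant ciliated marker, Sec14l3, had 275476 and 277573 normalised reads with the inhibitor, against 299679 and 286968 with DMSO. The ciliated list had a median of 0.20 on the log2 scale, with 4 of the 6 above 0, so its sum does not show how each marker moved. For the goblet, alveolar type 2, club and ciliated lists, in that order, edgeR called 1, 0, 1 and 0 genes and DESeq2 3, 4, 2 and 3. Of 4 tested basal cell markers 0 passed with limma and 3 had an unadjusted p under 0.05, edgeR called 0 and DESeq2 1. The median of the basal list was -1.30 on the log2 scale, and its sums were 774 and 2641 normalised reads with the inhibitor, against 4239.9 and 3258 with DMSO. Of 4 tested alveolar type 1 markers 0 passed with limma, edgeR or DESeq2 and 0 had an unadjusted p under 0.05, with sums of 7909.9 and 8699.6 normalised reads with the inhibitor and 7613 and 8535 with DMSO. No list named so far had a marker at 0 in all libraries. Markers of immune cells summed to 443 and 284 normalised reads with the inhibitor and 127 and 607 with DMSO, with S100a8 and Nkg7 at 0 in all libraries. Fibroblast and smooth muscle markers summed to 5176 and 4425 with the inhibitor and 2228 and 5099 with DMSO, and endothelial markers to 4273 and 5809.5 with the inhibitor and 4188 and 11484 with DMSO, with no marker at 0. All 7 fibroblast and smooth muscle markers had a log2 fold change above 0, with a median of 0.65. In 3 of the 7 both inhibitor values lay above both DMSO values, and 2 had an unadjusted limma p under 0.05. Of the 5 endothelial markers 1 lay above 0, with a median of -0.15, and 1 had an unadjusted limma p under 0.05. In both lists limma, edgeR and DESeq2 called 0. The part of cell types in the members' values was not tested.

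**Figure D5:**
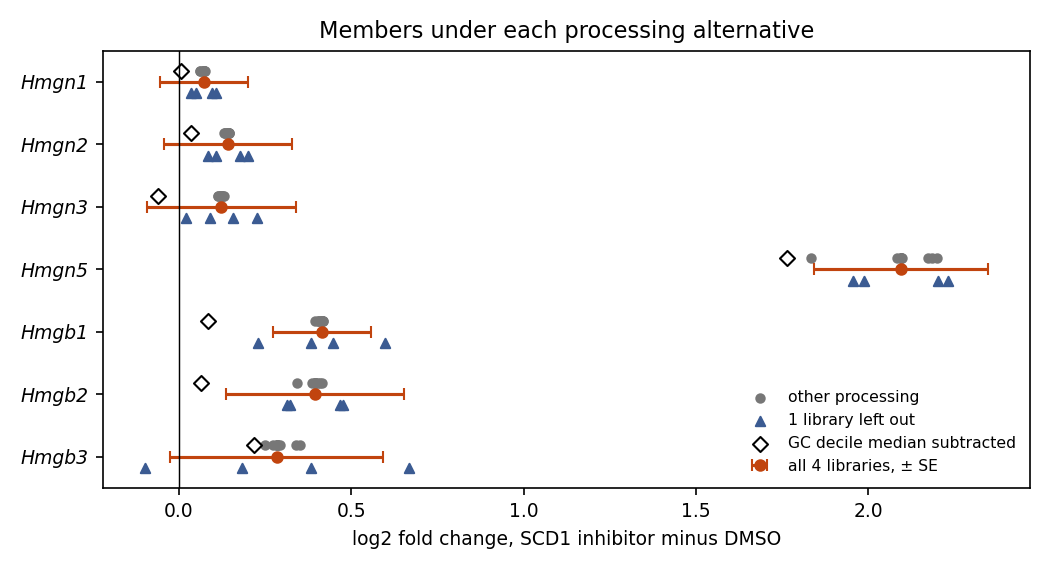
Log2 fold change, SCD1 inhibitor minus DMSO (x axis), of each member (rows) with all 4 libraries (red, ± SE), with 1 library left out (blue triangles), under the other processing alternatives (grey) and after subtraction of the median of genes of like GC content (open diamonds). Hmgn5 stays at 1.76 or above throughout, and Hmgb3 lies at -0.099 with SCD1 inhibitor replicate 1 left out.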

How the data were processed

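The deposited values are a normalised signal, in which each gene's reads have been divided by a size factor of the library. HOMER, DESeq2 and mm10 are named in the submitters' processing notes, without version or step. RNA of sorted cells was made into libraries with a directional kit, per the labels' protocols. For aligner and strand setting, nothing is given in the sources used here. All values of each library were whole multiples (within 0.01) of 1 step, and the inverse steps (1.05 and 0.953 for the inhibitor, 1.03 and 1.01 for DMSO) equalled the median-of-ratios size factors, which gave back read counts. For DMSO replicate 2 the step, 0.991, is close to 1, so its unit rests on that match. These reads were used for edgeR 4.0.16 (15299 genes) and DESeq2 1.42.0 only.

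Genes with a mean of at least 25.8 were tested with limma 3.58.1 in R 4.3.3 on log2(value + 25.8), with a trend of variance on intensity (11.2 prior degrees of freedom), group as the term, and Benjamini-Hochberg adjustment at 0.05. The script was tested on simulated data. Symbols were matched to GENCODE M21 (24505 by symbol, 19 by a synonym, 600 not).

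The members and lists were chosen with earlier results of these data known. Named were all members, the genes of each function list that passed (at most 4) or else the 2 most abundant, and the 5 nearest profiles. Other genes were chosen after their values were seen. Alternatives were a replicate block, other pseudocounts, floors and scalings, no trend, edgeR, DESeq2 and each library left out.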

Additional observations from a re-analysis of the deposited data

How the results depend on the processing

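The number of genes called in the limma fit, 188 higher and 59 lower with 1 gene of the fixed lists, differed between settings. It was 469, 205 and 7 with the replicate block, 51, 13 and 0 without a floor (16 list genes at an unadjusted p under 0.05), and 331, 146 and 6 with DESeq2. edgeR gave 7, 3 and 0, with 1862 genes and 14 list genes at an unadjusted p under 0.05. limma without the intensity trend gave 0, 0 and 0, with 1423 and 10. With 1 library left out, the counts ranged from 0 to 616 higher, 5 to 179 lower and 0 to 10 list genes. Leaving out DMSO replicate 1 gave the highest counts, 616 and 179, and DMSO replicate 2 gave 240 and 115. Leaving out SCD1 inhibitor replicate 1 gave 0 higher and 5 lower (1061 genes and 9 list genes at an unadjusted p under 0.05), and its replicate 2 gave 3 and 12 (853 and 6). The replicate numbers are not said to pair samples. Deviations of samples with the same number correlated at 0.073 over the 13810 genes. The replicate block changes no log2 fold change here, and 1 member passed with it, as did Atrx (adjusted p = 6.53e-14) and Ccdc113 (adjusted p = 0.00182). Ccdc113 was selected on the contrast, so its p is no independent test.

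Over the 14 alternatives named under processing, the log2 fold change of Hmgn5 ranged from 1.83 (a pseudocount 4 times as large) to 2.23. It passed with edgeR and DESeq2, as 1 of 7 members with each, and failed to pass without the trend. Nor did it pass with either SCD1 inhibitor library left out, at log2 fold changes of 1.99 without replicate 1 and 2.20 without replicate 2. edgeR called 0.0654% of its 15299 genes, and DESeq2 5.67% of the 8418 genes that it gave an adjusted p. Hmgn5 was chosen on this contrast in the same 4 libraries, so these calls are no independent test. Without DMSO replicate 2, 2 members passed. Members that did not overlap numbered 5 under each alternative that kept all 4 libraries and rescaled or refiltered the values. Hmgb3 alone changed sign, without SCD1 inhibitor replicate 1 (-0.099). Subtracting the median of genes of like GC content, an alternative chosen after seeing the data, put the members' median at 0.063, against 0.28, and Hmgn3 at -0.060. The cause was not tested. Precision is limited by 2 samples per group. Counting error is at most 6.48% for any member.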

Other observations

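Around Hmgb3, 7 tested genes lay within 1 Mb, and none of them passed limma's test over all genes. The largest difference was that of Cnga2, a cyclic nucleotide-gated channel gene, with 98.4 and 78.7 normalised reads with the inhibitor, against 28.3 and 11.9 with DMSO (1.33 ± 0.58, SE, adjusted p = 0.318). The lipid phosphatase genes Mtm1 and Mtmr1 had log2 fold changes of 0.29 ± 0.32 and 0.41 ± 0.19 (SE), and Cd99l2 had -0.40 ± 0.19. Xist, the noncoding RNA of the inactive X chromosome, had 22118 and 21758 normalised reads with the inhibitor, against 17568 and 12560 with DMSO. These genes were chosen after their values were seen.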
